A study of Mus musculus with 16 samples.

Results

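The genes of the mouse mitochondrial genome are described here from the gene annotation that was deposited with a study of macrophages. Every model placed on chromosome MT was taken, which gave 39 of the 50578 genes in the annotation. Of these, 37 came from Ensembl, with 13 protein-coding genes, 22 transfer RNAs (tRNAs) and 2 ribosomal RNAs (rRNAs), and the other 2 were RefSeq models of the same rRNAs.

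The study compared bone-marrow-derived macrophages, grown from mouse marrow for 7 days with the growth factor M-CSF at 50 ng/ml, with and without lipopolysaccharide (LPS), a bacterial membrane component. RNA-seq covered 3 LPS and 3 untreated samples of wild-type C57BL/6 cells, and ribosome profiling with cycloheximide (CHX), a drug that arrests cytosolic ribosomes, covered 2 LPS and 2 untreated samples of the same strain and genotype. RiboTag, which pulls down a tagged ribosomal protein, covered LysM-Cre x RiboTag cells, with 2 samples before LPS, 2 after 6 h and 2 after 24 h. In that cross the tag depends on Cre driven from LysM, a gene of myeloid cells. For the RNA-seq and ribosome profiling samples the labels give 6 or 24 h of LPS without saying which applies to which. The file analysed here holds gene models and no value of any sample, so nothing is said of the effect of LPS on these genes, the macrophage label could not be set against its markers, and the depth is unknown. The values below are positions and lengths in build mm10. They have no replicates and no error, and no test was run on them.

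The mammalian mitochondrial genome is a small circle that encodes core subunits of the respiratory chain and of ATP synthase, together with the rRNAs and tRNAs with which mitochondria translate them. Both strands are transcribed into long RNAs holding many genes, and in the usual account the tRNAs that lie between the other genes mark the places where these RNAs are cut. In macrophages, LPS is known to shift energy metabolism from oxidative phosphorylation towards glycolysis. Mitochondria read their messenger RNAs on ribosomes of their own, which differ from the cytosolic ribosomes tagged in RiboTag mice and arrested by cycloheximide.

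The 37 Ensembl models filled nearly the whole stretch they spanned. That stretch ran from position 1, the first base of the phenylalanine tRNA mt-Tf, to position 15422, the outer end of the proline tRNA mt-Tp, and no model lay beyond it. The part of the circle after mt-Tp, which in mammals holds the noncoding control region, is outside this stretch and was not used here. Models on either strand covered 15365 of its 15422 bases (99.6%) and left 57 bases (0.370%) in no model. Measured likewise from the first to the last model, exons covered 99.6% of the span of chromosome MT, against a median of 3.64% over the 21 nuclear chromosomes, which ranged up to 5.97% on chromosome 11. With the RefSeq models counted, chromosome MT held 25.3 gene models per 10 kb, against a median of 0.187 and a highest value of 0.269 among the nuclear chromosomes. With Ensembl models alone, these values were 24.0, 0.173 and 0.251.

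The genes were unequally divided between the strands. The plus strand carried 28 of the 37 models, which covered 92.8% of the span, and the minus strand carried 9, which covered 6.93%. Of the protein-coding genes, 12 lay on the plus strand and 1, mt-Nd6, on the minus strand. Both rRNAs and 14 tRNAs lay on the plus strand, and 8 tRNAs on the minus strand. Models of both strands overlapped at 20 bases.

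**Figure D1:**
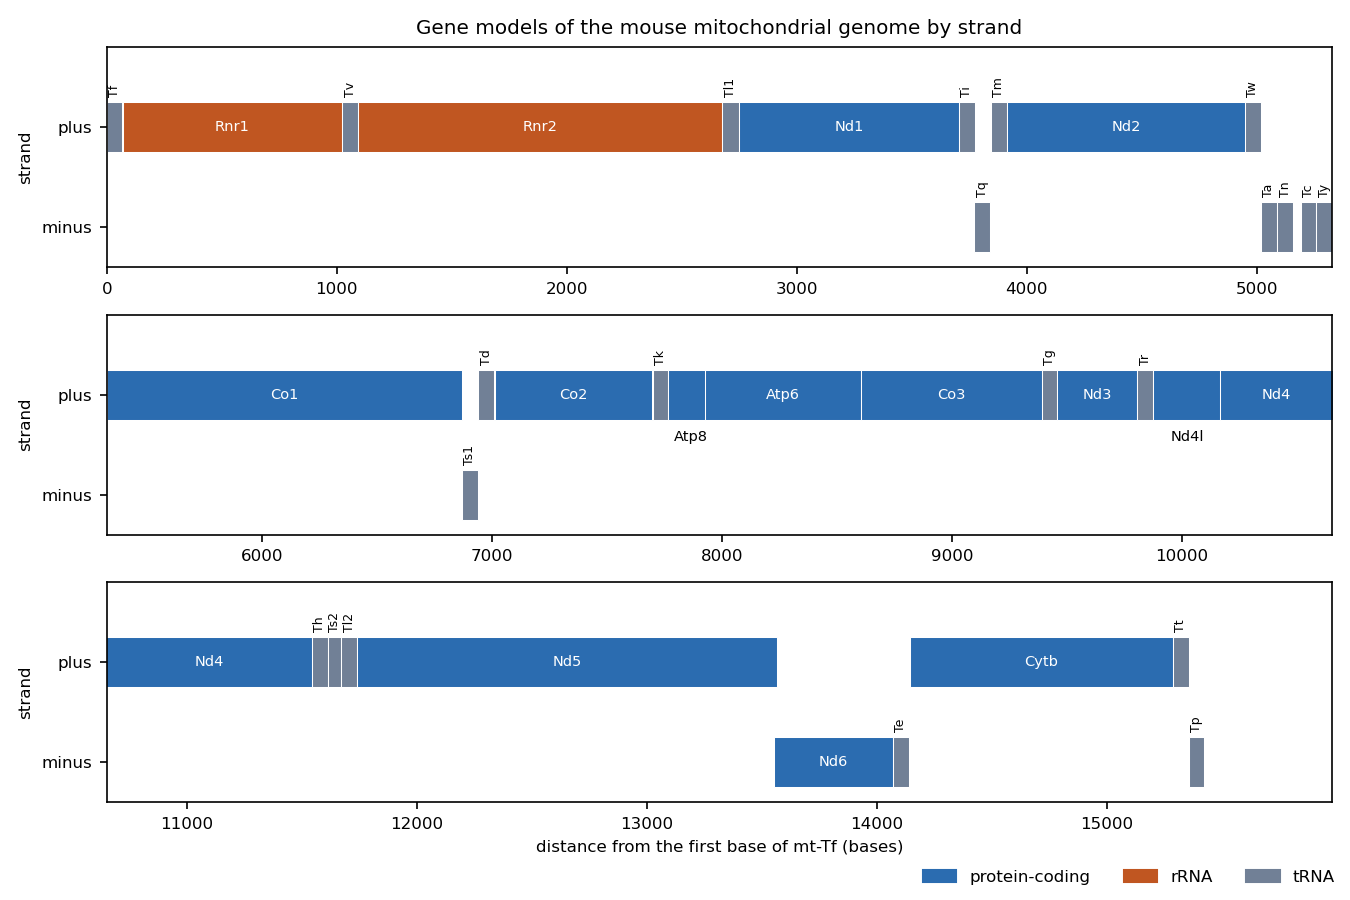
Map of the 37 Ensembl models in 3 rows, with the distance in bases from the first base of mt-Tf on the horizontal axis and the strand on the vertical axis; each bar is 1 model drawn to scale, and names omit the prefix mt-. The plus strand holds 28 models and the minus strand 9, and tRNAs lie between most of the larger genes.

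Each of the 39 models had 1 transcript and 1 exon. Of the nuclear protein-coding Ensembl genes on chromosomes 1 to 19, X and Y, 11.4% had 1 exon in every transcript (2494 of 21945) and 38.8% had 1 transcript (8506). In none of the 13 mitochondrial coding genes was a base annotated outside the coding sequence and its stop codon, so no untranslated region was annotated for them. Among nuclear genes with a complete coding sequence, 8.70% (1864 of 21416) were annotated in this way for the transcript with the longest coding sequence. Although the mitochondrial RNAs are known to be made as long precursors, the annotation gave each of the 39 models a start-site identifier of its own.

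Complex I, the NADH dehydrogenase that feeds electrons into the respiratory chain, was encoded by 7 genes with 2114 of the 3790 whole codons on MT. In map order they were mt-Nd1 (positions 2751 to 3707, 318 codons), mt-Nd2 (3914 to 4951, 345 codons), mt-Nd3 (9459 to 9806, 115 codons), mt-Nd4l (9877 to 10173, 98 codons), mt-Nd4 (10167 to 11544, 459 codons), mt-Nd5 (11742 to 13565, 607 codons) and mt-Nd6 (13552 to 14070, 172 codons). Codon numbers leave out the stop codon. The longest of the 13 coding genes was mt-Nd5, and mt-Nd6 was the coding gene of the minus strand.

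Complex III, the cytochrome bc1 complex that passes electrons to cytochrome c, was represented by mt-Cytb, the cytochrome b gene (14145 to 15288, 381 codons). Complex IV, the cytochrome c oxidase, was represented by mt-Co1 (5328 to 6872, 514 codons), mt-Co2 (7013 to 7696, 227 codons) and mt-Co3 (8607 to 9390, 261 codons), which form its catalytic core. Complex V, the ATP synthase, was represented by mt-Atp8 (7766 to 7969, 67 codons) and mt-Atp6 (7927 to 8607, 226 codons), both of which belong to its membrane part. The shortest coding gene was mt-Atp8, followed by mt-Nd4l.

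The rRNA genes stood near the start of the map. The RNA of the small ribosomal subunit, mt-Rnr1, lay at positions 70 to 1024 (955 bases), and that of the large subunit, mt-Rnr2, at 1094 to 2675 (1582 bases). They were separated by the valine tRNA mt-Tv, whose 69 bases filled the space between them with no base left over.

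The 22 tRNA genes served all 20 amino acids, with a pair each for leucine (mt-Tl1 and mt-Tl2) and serine (mt-Ts1 and mt-Ts2). On the plus strand were the tRNAs for phenylalanine (mt-Tf), valine (mt-Tv), leucine, isoleucine (mt-Ti), methionine (mt-Tm), tryptophan (mt-Tw), aspartate (mt-Td), lysine (mt-Tk), glycine (mt-Tg), arginine (mt-Tr), histidine (mt-Th) and threonine (mt-Tt), and the serine tRNA mt-Ts2. Those on the minus strand were glutamine (mt-Tq, 3772 to 3842), alanine (mt-Ta, 5018 to 5086), asparagine (mt-Tn, 5089 to 5159), cysteine (mt-Tc, 5192 to 5257), tyrosine (mt-Ty, 5260 to 5326), serine (mt-Ts1, 6870 to 6938), glutamate (mt-Te, 14071 to 14139) and proline (mt-Tp, 15356 to 15422).

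The tRNA genes were nearly uniform in length. Their median was 68.5 bases, and 20 of the 22 measured 65 to 71 bases. The shortest was mt-Ts2 (11613 to 11671) with 59 bases, and the longest was mt-Tl1 (2676 to 2750) with 75 bases, while the partners of these tRNAs for the same amino acids, mt-Ts1 and mt-Tl2, measured 69 and 71 bases. The 8 tRNAs of the minus strand had a median of 69 bases (66 to 71), against 68 bases (59 to 75) for the 14 of the plus strand.

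The tRNAs stood singly or in short runs. They formed 12 runs, of which 7 held 1 tRNA and 5 held more. The longest run, mt-Tw, mt-Ta, mt-Tn, mt-Tc and mt-Ty, lay between mt-Nd2 and mt-Co1 and held 4 of the 8 minus-strand tRNAs. A run of mt-Ti, mt-Tq and mt-Tm lay between mt-Nd1 and mt-Nd2, and a run of mt-Th, mt-Ts2 and mt-Tl2 between mt-Nd4 and mt-Nd5. A pair, mt-Ts1 and mt-Td, lay between mt-Co1 and mt-Co2, and another, mt-Tt and mt-Tp, closed the map after mt-Cytb.

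Neighbouring models were close together. Of the 36 pairs of neighbours in order of position, 9 overlapped, 12 touched with no base between them and 15 were apart. The share that overlapped or touched was thus 58.3% (21 of 36), against 18.2% of 45648 neighbouring pairs of nuclear Ensembl genes (8290 pairs). Of the nuclear pairs, 8281 overlapped and 9 touched, so the difference lay mainly in touching pairs. The median gap was 0 bases on MT, against 11562.5 bases between nuclear neighbours. Nuclear genes were measured over their whole span with introns, so a gene within an intron of its neighbour counted as overlapping. Each model was compared only with the next by start position. Of the 15 mitochondrial gaps, 14 measured 1 to 5 bases. The remaining gap, between mt-Tn and mt-Tc, measured 32 of the 57 bases that no model covered within the stretch. In mammals the origin of replication of the light strand is known to lie between these 2 tRNA genes.

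**Figure D2:**
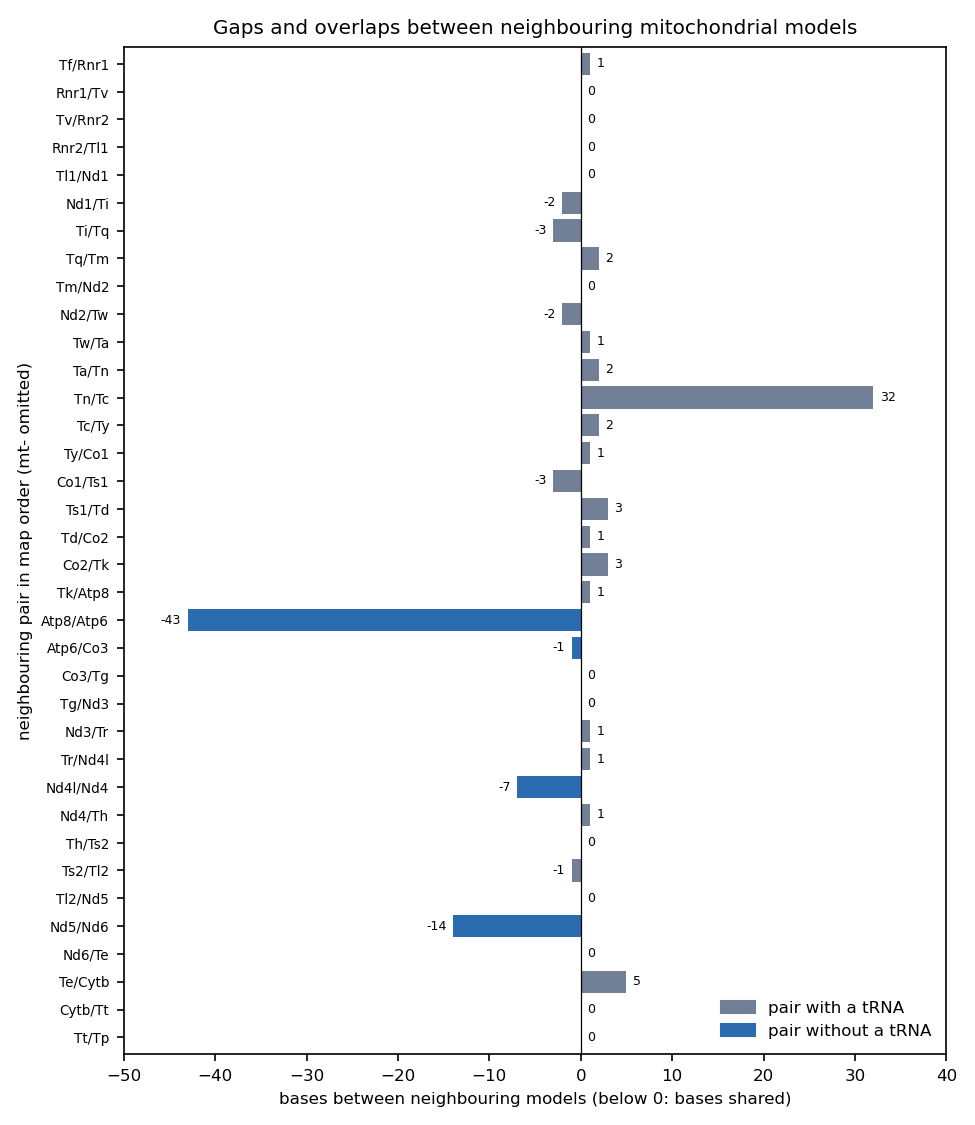
Bases between the 36 pairs of neighbouring models in map order, with gaps to the right of 0, overlaps to the left and the number beside each bar; blue bars are pairs that hold no tRNA. The 4 pairs without a tRNA all overlap, by 1 to 43 bases, and the gap of 32 bases between mt-Tn and mt-Tc stands apart from the others.

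Every pair of neighbours that held no tRNA overlapped. There were 4 such pairs, mt-Atp8/mt-Atp6 (43 bases, 7927 to 7969), mt-Nd5/mt-Nd6 (14 bases, 13552 to 13565), mt-Nd4l/mt-Nd4 (7 bases, 10167 to 10173) and mt-Atp6/mt-Co3 (1 base, 8607). Of the 32 pairs with a tRNA, 5 overlapped, by at most 3 bases. These were mt-Nd1/mt-Ti and mt-Nd2/mt-Tw with 2 bases each, mt-Co1/mt-Ts1 and mt-Ti/mt-Tq with 3 bases each, and mt-Ts2/mt-Tl2 with 1 base. In 6 of the 9 overlaps both genes lay on the same strand. The exceptions were mt-Ti/mt-Tq, mt-Co1/mt-Ts1 and mt-Nd5/mt-Nd6.

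Stop codons took part in 7 of the 9 overlaps and held 20 of the 76 overlapping bases (26.3%). Of the 9 overlaps, 4 fell wholly within an annotated stop codon, namely mt-Nd1/mt-Ti, mt-Nd2/mt-Tw, mt-Co1/mt-Ts1 and mt-Atp6/mt-Co3. Another 3, those of mt-Atp8/mt-Atp6, mt-Nd4l/mt-Nd4 and mt-Nd5/mt-Nd6, fell partly within one. Without stop codons, the coding sequences of these 3 pairs still shared 40, 4 and 8 bases. The mt-Atp8/mt-Atp6 overlap made up 56.6% of all 76 overlapping bases and 21.1% of mt-Atp8.

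Between consecutive coding or rRNA genes, tRNAs took up almost all of the space. Of the 14 stretches between such genes, 10 held at least 1 tRNA, and the other 4 were the overlapping pairs named above. The 10 stretches measured 68 bases (mt-Co3 to mt-Nd3, filled by mt-Tg) to 376 bases (mt-Nd2 to mt-Co1) and summed to 1344 bases, of which tRNA models covered 1288 (95.8%). In 3 of them, around mt-Tv, mt-Tl1 and mt-Tg, no base was left outside the tRNA.

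Of the 15 coding and rRNA genes, 8 had a tRNA as neighbour on both sides, 6 on 1 side and 1, mt-Atp6, on neither. The 8 were mt-Rnr1, mt-Rnr2, mt-Nd1, mt-Nd2, mt-Nd3, mt-Co1, mt-Co2 and mt-Cytb. Those with a tRNA on 1 side were mt-Atp8, mt-Co3, mt-Nd4l, mt-Nd4, mt-Nd5 and mt-Nd6. A tRNA stood next to the 5′ end of 12 of the 15 genes and next to the 3′ end of 10. For 10 of those 12 and 9 of those 10, gene and tRNA lay on the same strand. The genes next to a tRNA of the opposite strand were mt-Co1, with mt-Ty before it and mt-Ts1 after it, and mt-Cytb, with mt-Te before it. Counting only tRNAs that touched or overlapped the gene gave other numbers. Of the 15 genes, 3 then had such a tRNA on both sides, 7 on 1 side and 5 on neither.

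Stop codons were annotated for 10 of the 13 coding genes. The 3 without a stop codon line were mt-Co3, mt-Nd4 and mt-Cytb. The coding sequences of these 3 genes, of 784, 1378 and 1144 bases, each ended 1 base past the last whole codon, whereas those of the other 10 were whole numbers of codons. Each of the 3 was followed by a tRNA on the same strand, with no base between mt-Co3 and mt-Tg or between mt-Cytb and mt-Tt and with 1 base between mt-Nd4 and mt-Th. In mammals such incomplete stop codons are known to be completed by the poly(A) tail that is added after cutting. Among nuclear protein-coding genes, 98.8% (21672 of 21945) had a stop codon line in at least 1 coding transcript.

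The mitochondrial coding genes lay in the lower and middle range of nuclear coding lengths. Their median was 261 codons (quartiles 172 and 381, n = 13), against 396 codons (quartiles 258 and 654) for 21416 nuclear genes with a complete coding sequence. Of the 13, 7 fell between the nuclear quartiles, 6 fell below the lower one and 0 lay above the upper one. For mt-Nd5, the longest with 607 codons, 72.1% of nuclear genes were shorter. For mt-Cytb the share was 48.2%, the closest of the 13 to the nuclear median. At the other end, 0.495% of nuclear genes were shorter than mt-Atp8 and 2.54% were shorter than mt-Nd4l. These 2 genes had at most 100 codons, as had 2.81% of nuclear genes (601).

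**Figure D3:**
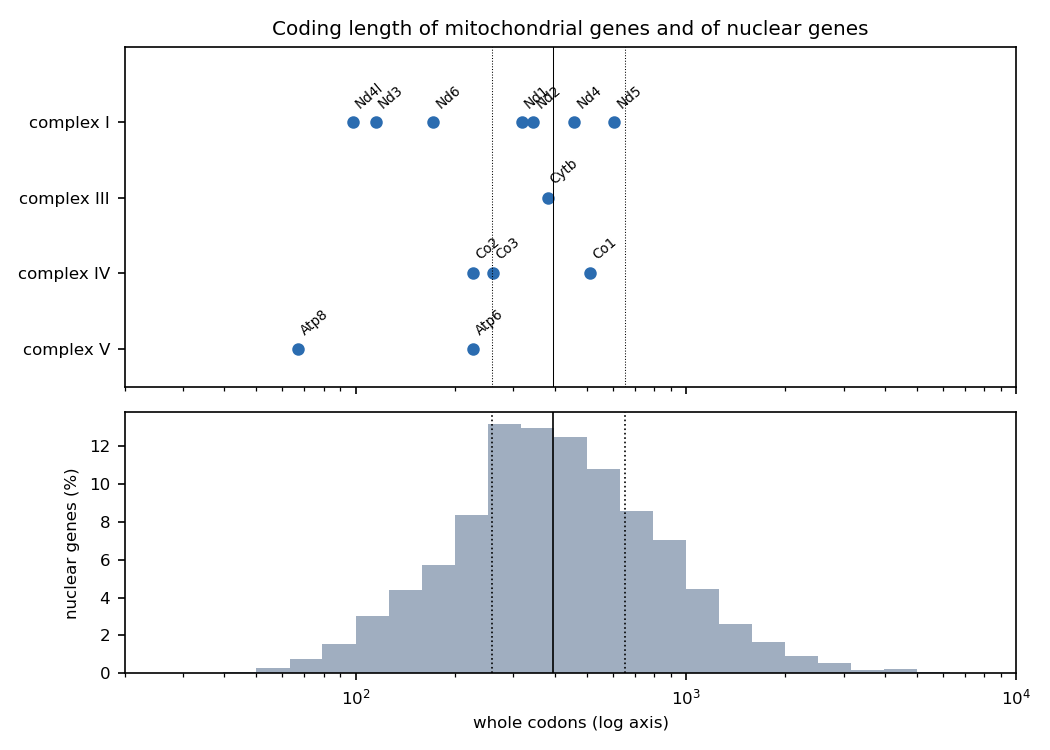
Whole codons on a log axis for the 13 mitochondrial coding genes, grouped by respiratory complex (upper panel, 1 point a gene), and for 21416 nuclear genes with a complete coding sequence (lower panel, percent of genes per bin). Solid and dotted lines mark the nuclear median of 396 codons and the quartiles of 258 and 654; mt-Atp8 with 67 codons lies farthest left and mt-Nd5 with 607 farthest right.

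Nuclear genes were listed for the same complexes by gene symbol, without checking that each encodes a subunit. For complexes I, III and IV their median coding length was below that of the mitochondrial genes. For complex IV the 3 mitochondrial genes had 227 to 514 codons, and each exceeded the longest of the 18 nuclear genes named Cox4 to Cox8, whose range was 63 to 172 codons with a median of 84.5. For complex I the median was 318 codons over the 7 mitochondrial genes, against 146.5 over 38 nuclear Nduf genes, with ranges of 98 to 607 and 70 to 727 codons. For complex III, mt-Cytb had 381 codons, against a median of 111 and a range of 56 to 480 over 9 nuclear genes, Cyc1 and those named Uqcr. For complex V, mt-Atp8 and mt-Atp6 had 67 and 226 codons, against a median of 153.5 and a range of 52 to 553 for 18 nuclear genes with a symbol starting Atp5 in the annotation or in the table of gene names. That list goes by symbol and includes Atp5sl, named Dmac2 in the table, which is not a subunit of the enzyme. None of these nuclear genes had a single exon, and their median was 4 exons for complexes I, III and IV and 5 for complex V.

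The nuclear genes that serve mitochondrial RNA were spread over many chromosomes. Of 19 symbols for its synthesis, cutting and turnover, such as the polymerase Polrmt and the tRNA-cutting enzyme Elac2, 17 were found, on 11 chromosomes. Prorp and Fastkd4 were not found under these symbols. By symbol alone, without a check of each protein, the mitochondrial ribosome was represented by 49 Mrpl and 29 Mrps genes, on 17 and 14 chromosomes. Aminoacyl-tRNA synthetases of mitochondria were listed as 17 genes with symbols ending in ars2. Of these synthetase genes, 1 had a single exon.

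Coding sequences overlapped in a larger share of the mitochondrial genes, a difference given without a test. Coding sequence without the stop codon was shared with another coding gene on the same strand by 4 of 13 mitochondrial genes, against 2.27% of nuclear genes (498 of 21945). The 4 were mt-Atp8, mt-Atp6, mt-Nd4l and mt-Nd4. In both mitochondrial pairs the shared bases were read in different frames, with 0 bases in the same frame. Of 675 nuclear pairs with shared coding bases on the same strand, 635 (94.1%) shared some bases in the same frame, and 40 shared none in the same frame. The 675 pairs came from 498 genes, so some genes stood in several pairs. Whether paired models were separate genes or models of the same locus was not examined. The 40 nuclear pairs without a base in frame involved 79 genes, or 0.360% of nuclear genes. On opposite strands, mt-Nd5 and mt-Nd6 shared 8 coding bases, and 357 nuclear genes (1.63%) shared coding bases with a gene of the other strand.

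The rRNA genes were each listed under 2 identities. The RefSeq models Rnr1 and Rnr2 had the same ends and strand as mt-Rnr1 and mt-Rnr2, so all 955 and 1582 bases of the Ensembl rRNA models were also exon bases of another model. With these models counted, 13 of the 37 Ensembl models shared exon bases on the same strand, 2649 bases in all, or 17.2% of their summed length. With Ensembl models alone, 11 models shared 112 bases (0.725%). These sums count a shared base for each gene that holds it, so the 112 bases stand for 56 positions. Read counts on these models were not analysed here.

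Names differed more than positions between annotation sources. All 37 Ensembl models had the same start and end as a gene of the RefSeq table for assembly GRCm38.p6, and the class counts were equal. Whether these sources were made independently of each other was not checked. The symbol was the same for mt-Rnr1 and mt-Rnr2 alone, and the other 35 stood there under symbols such as ND1, COX1 and TrnF, with no mention of the mt- symbol among their synonyms. The symbol mt-Atp6 did occur in that table, as a synonym of Gm10925, a pseudogene on chromosome 1. The annotation held 22 mitochondrial tRNA models and 0 nuclear models with a tRNA biotype, whereas the RefSeq table listed 22 on MT and 408 outside it.

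Parts of the mitochondrial gene order were found again among nuclear pseudogene models. The 8839 Ensembl pseudogene models were searched for runs of at least 2 models in which at least 4 ends kept the spacing of the ends of mitochondrial coding or rRNA genes within 3 bases. Within a run, the strands of the models also had to follow those of the mitochondrial genes, in the same or the reverse orientation. The search rule was chosen after the positions had been seen, and it compares positions and strands alone, since no genome sequence was used. It gave 3 runs with 12 nuclear models, which matched 10 of the 13 coding genes. Under this rule the genes without a match were mt-Nd1, mt-Atp8 and mt-Nd5, together with both rRNAs. With at least 3 matched ends, or with a tolerance of 10 bases, mt-Atp8 and mt-Nd5 were also matched. The models matched to mt-Atp8 differed, being Gm28927 and Gm14916 under the first setting and Gm28925 under the second. With a tolerance of 10 bases, Gm28927 was matched to mt-Co3 instead. Gm15043 was matched to mt-Nd5 under both settings.

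The longest run lay on the minus strand of chromosome 1, at positions 24611535 to 24616197, and held 7 unprocessed pseudogenes with 12 matched ends. Read along the minus strand, it began with Gm29216, which matched the last 31.8% of mt-Co1. It went on with Gm28661 (681 bases, matched to mt-Co2), Gm10925 (678 bases, mt-Atp6), Gm28437 (783 bases, mt-Co3), Gm28438 (345 bases, mt-Nd3) and Gm10222 (294 bases, mt-Nd4l). It ended with Gm28439, which matched the first 63.6% of mt-Nd4. From Gm28661 to Gm10222 these models matched 99.0 to 99.9% of the mitochondrial gene. Gm28661, Gm10925 and Gm28438 ended just before the stop codon, and Gm28437 before the incomplete last codon. Gm10222 was as long as the mt-Nd4l gene without its stop codon and was placed 1 base further along.

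The search rule itself required kept spacing and strands, so distances, strands and matched lengths are given as a description. The distance between Gm29216 and Gm28661 was 140 bases, the same as between mt-Co1 and mt-Co2. Gm10222 and Gm28439 overlapped by 4 bases, as did the coding sequences of mt-Nd4l and mt-Nd4. Of the 6 distances in this run, 4 equalled the mitochondrial distance with or without stop codons and the other 2 differed from it by 1 base.

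On chromosome 2, at 22587291 to 22590533, a run of 3 unprocessed pseudogenes with 4 matched ends lay on the minus strand within the span of Myo3a, a gene of the plus strand. Gm13340 had 1545 bases, the length of mt-Co1, and stood between Gm13339, which matched the last 49.1% of mt-Nd2, and Gm13341, which matched the first 98.2% of mt-Co2. Both distances, 376 and 140 bases, were the same as on MT. On chromosome 4, at 80003396 to 80005131, Gm11408 (519 bases) and Gm11410 (1143 bases) had the lengths of mt-Nd6 and of mt-Cytb without its last base. They lay on opposite strands, as mt-Nd6 and mt-Cytb do and as the search rule required. The distance was 74 bases, as on MT. Both were annotated as processed pseudogenes, a label meant for copies made from RNA. How these models arose was not tested.

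**Figure D4:**
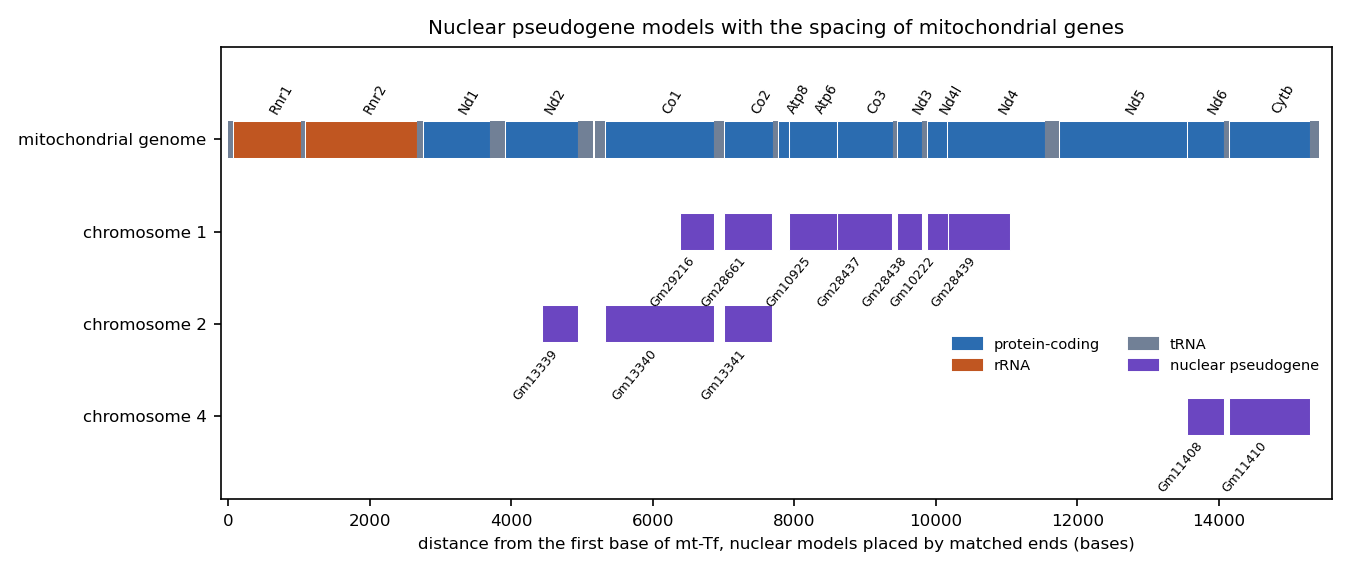
The mitochondrial models (top row) and 12 nuclear pseudogene models of chromosomes 1, 2 and 4 (lower rows), placed by their matched ends along the distance in bases from the first base of mt-Tf and drawn to scale. The chromosome 1 row follows 7 genes from mt-Co1 to mt-Nd4, the chromosome 2 row mt-Nd2 to mt-Co2, and the chromosome 4 row mt-Nd6 and mt-Cytb.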

How the data were processed

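RNA-seq, RiboTag and ribosome profiling libraries of 16 samples were made, but the file used here is a gene annotation, and 0 of its columns hold values per sample. The start and end positions were deposited by the authors as whole numbers counted from 1, a unit with no normalization. No line carries a score. Per the submitters' processing notes, the aligner TopHat2 (version 2.1.1) and build mm10 were used. The origin of the annotation is not stated there.

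Gene models were read with Python 3.11.15, numpy 2.4.6 and scipy 1.17.1 and drawn with matplotlib 3.10.9. Models with source ensembl, havana, ensembl_havana, insdc or mirbase were called Ensembl models. Neighbours are consecutive models by start position. The members and lists were chosen with earlier results of these data known. All coding and rRNA genes were named by role, the tRNAs by amino acid, and nuclear partners by fixed symbols. Nuclear pseudogene models were named after their positions were seen. Alternatives to the gap limit, strand, models and codon set were computed. Of the 37 gene IDs, all 37 had the same symbol in a table of gene names. Interval, overlap and spacing functions were tested on simulated models. Genes are not replicates, so no test was run. Depth per sample is unknown.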

Additional observations from a re-analysis of the deposited data

How the results depend on the processing

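The annotation is complete for MT as deposited, so these alternatives change definitions and not samples. Gene classes, overlapping pairs by coding ends or on the same strand, flanking tRNAs within 5 bases, shared bases on either strand and mitochondrial coding overlaps on either strand stayed within 1.5 times their reported counts. The count by coding ends could not differ, because no coding model had a base outside its coding sequence and stop codon. Nor could that of flanking tRNAs within 5 bases, because the only larger gap lay between the tRNAs mt-Tn and mt-Tc. With only touching or overlapping tRNAs counted, 3 genes were flanked on both sides, against 8. Without tRNAs, 4 pairs overlapped. Counting gaps of up to 5 bases as touching gave 97.2% of pairs. The span inside a gene was 92.8% on the plus strand, 6.93% on the minus strand and 73.4% for coding sequence. The difference of median codons, mitochondrial minus nuclear, was -135, and became -50 against nuclear genes with 1 exon and -127 against those with any coding sequence. Ensembl models alone shared 112 bases, counted for each gene of a pair, against 2649 with the RefSeq rRNA models. On either strand, 3.86% of nuclear genes shared coding bases. The search for nuclear copies and its settings were chosen after seeing the data and gave 12 models as reported, with 21 models for at least 3 matched ends, 7 for at least 5, 19 for a tolerance of 10 bases and 8 for a tolerance of 0 bases. The run on chromosome 1 was present under all 4 settings, with 5 of its 7 models at a tolerance of 0 bases. The run on chromosome 4 was lost at that tolerance, and those on chromosomes 2 and 4 were lost with at least 5 matched ends. No paired analysis was possible because the deposited annotation holds no measurement of any sample, and the library comparisons planned for that case were not run. Read depth limits none of these values.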
